A study of Mus musculus with 6 samples.

Results

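The genes described here are 9 in number: Nos1, which encodes neuronal nitric oxide synthase, 3 genes whose proteins bind or place that enzyme (Nos1ap, Nosip and Dynll1), and 5 genes that make, restrain or recycle its cofactor tetrahydrobiopterin (Gch1, Gchfr, Pts, Spr and Qdpr). They were taken by name, from a list chosen with earlier results of these data known. Each matched 1 row among the 23358 gene rows of the count table. RNA was sequenced from N1E115 cells, a mouse neuroblastoma line that the labels call NOS1-positive, after 3 days of culture in 4% oxygen (3 libraries, replicates 1 to 3) or in 20% oxygen (3 libraries, replicates 1 to 3). Both groups are the same line, no other agent is named, and nothing in the labels ties a replicate to a culture of its own. The p-values therefore measure the spread between these samples, which may be technical. The comparison asks which transcripts differ between the oxygen levels.

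Neuronal nitric oxide synthase makes nitric oxide and citrulline from arginine and molecular oxygen. It works as a dimer that calcium-calmodulin switches on, and it needs tetrahydrobiopterin bound near its haem: without the cofactor the enzyme can pass electrons to oxygen and release superoxide instead. GCH1 (GTP cyclohydrolase) commits GTP to tetrahydrobiopterin synthesis, PTS (6-pyruvoyltetrahydropterin synthase) and SPR (sepiapterin reductase) complete it, and QDPR (dihydropteridine reductase) regenerates the cofactor after aromatic amino acid hydroxylases have used it. GCHFR is the feedback protein that binds GCH1 and mediates its inhibition by tetrahydrobiopterin and its stimulation by phenylalanine. In cells that make catecholamines, tyrosine hydroxylase draws on the same cofactor.

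The 3 genes whose libraries at 4% oxygen did not overlap those at 20% oxygen are shown by their promoter windows. Each is 300 bases, from 250 before to 50 after a RefSeq start site, in GRCm38.p6, read 5′ to 3′ on the gene's strand: Nos1 at chr5:117866589-117866888 (plus strand), Gchfr at chr2:119167538-119167837 (plus strand) and Qdpr at chr5:45450180-45450479 (minus strand). Capitals mark ACGTG or GCGTG on either strand, so that CACGT and CACGC are matches read from the other strand. These letters are the core of the element that hypoxia-inducible factors bind.
Nos1: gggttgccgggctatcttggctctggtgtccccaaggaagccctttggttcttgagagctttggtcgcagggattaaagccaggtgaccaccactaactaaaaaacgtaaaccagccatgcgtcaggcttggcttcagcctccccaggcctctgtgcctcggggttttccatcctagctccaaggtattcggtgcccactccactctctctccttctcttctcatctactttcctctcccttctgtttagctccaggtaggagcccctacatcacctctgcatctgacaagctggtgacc
Gchfr: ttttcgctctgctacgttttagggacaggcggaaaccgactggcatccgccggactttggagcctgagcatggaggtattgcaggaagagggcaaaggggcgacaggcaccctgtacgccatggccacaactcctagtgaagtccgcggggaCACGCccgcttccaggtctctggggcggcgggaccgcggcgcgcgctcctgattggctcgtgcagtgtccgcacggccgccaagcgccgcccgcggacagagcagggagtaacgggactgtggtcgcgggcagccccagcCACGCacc
Qdpr: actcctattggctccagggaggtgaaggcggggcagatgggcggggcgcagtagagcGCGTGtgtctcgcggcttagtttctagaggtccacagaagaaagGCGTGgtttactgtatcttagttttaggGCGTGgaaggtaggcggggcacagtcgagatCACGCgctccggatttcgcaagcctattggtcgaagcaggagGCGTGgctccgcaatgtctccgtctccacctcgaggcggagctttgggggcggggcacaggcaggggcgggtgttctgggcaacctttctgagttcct
The Nos1 window held 0 matches, the Gchfr window 2 and the Qdpr window 5, all of them GCGTG. All 9 genes had a window and Nos1ap had a pair, which made 10 windows. A match was present in 5 of the 10 (50%), those of Nos1ap (1 of its windows), Nosip, Dynll1, Gchfr and Qdpr, against 43.8% of 32851 windows of the same length over all genes. A match describes letters and not a bound site. For Nos1 the window surrounds 1 RefSeq start, at 117866839, and ends before the deposited gene start at 117867119. GENCODE release M21 annotates 7 starts for Nos1, between 117781032 and 117919175 on chromosome 5, and the counts do not separate them.

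Library totals over genes ran from 130915724 to 163695286 counts at 4% oxygen and from 124259152 to 139216400 counts at 20% oxygen. Replicate 1 at 20% oxygen stood farthest out, at -52.4 on a first principal component with 42.1% of the variance, where the others lay between -21.6 and 36.1. It was the lowest of the 6 libraries for 25.6% of all 14979 genes tested and the highest for 24.8%. As a check of the low-oxygen label, 9 genes known to respond to hypoxia were read from the same fit. Of these, 0 passed over all genes, 7 were higher at an unadjusted p under 0.05, and 8 were higher with groups that did not overlap. Over all genes tested, the shares higher at 4% oxygen were, in the same order, 0%, 3.01% and 6.33%. Slc2a1, a glucose transporter, averaged 184 ± 34.1 CPM in 4% oxygen, against 49.3 ± 15.7 CPM at 20% oxygen (SD, n = 3 each; CPM is the count relative to the library total, scaled by TMM), and Egln3, an oxygen-sensing prolyl hydroxylase, 102 ± 4.44 CPM in 4% oxygen, against 21.7 ± 10.1 CPM at 20% oxygen. Both had an edgeR adjusted p of 0.112. Vegfa, an angiogenic growth factor gene of the same list, averaged 279 ± 3.82 CPM in 4% oxygen, against 256 ± 203 CPM at 20% oxygen, with overlap (log2 fold change 0.12, SE 0.43). All 13 sympathetic neuroblast markers, among them Phox2a, Dbh and Th, were detected. Their summed level was 6271 to 7509 CPM in 4% oxygen, against 4478 to 4656 CPM at 20% oxygen, so it moved with oxygen as Nos1 did, and its part in the results below was not tested. The 9 mesenchymal and Schwann cell markers summed to 9.49 to 19.8 CPM in 4% oxygen, against 6.99 to 39.4 CPM at 20% oxygen. The 8 immune and endothelial markers summed to 73.7 to 101 CPM in 4% oxygen, against 34.3 to 54.5 CPM at 20% oxygen. Most of that sum was Vwf (78.9 ± 14.2 CPM in 4% oxygen, against 39.9 ± 9.32 CPM at 20% oxygen), while Ptprc and Cdh5 had at most 18 and 2 counts in any library. No marker of the 3 lists was at 0 in all 6 libraries.

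Per length, the entry enzyme of cofactor synthesis was the most abundant of the 9 transcripts and the NOS1 adaptor Nos1ap the least. By the authors' RPKM (reads per kilobase of gene model, scaled to a library total), Gch1 averaged 123 ± 2.31 at 4% oxygen and 113 ± 26.8 at 20% oxygen, above 97.4% of tested genes at 4% oxygen and 97.3% at 20% oxygen. Nos1ap averaged 0.443 ± 0.0988 RPKM at 4% oxygen and 0.379 ± 0.238 RPKM at 20% oxygen. At 4% oxygen the order was Gch1, Dynll1, Gchfr, Qdpr, Spr, Nos1, Nosip, Pts and Nos1ap. At 20% oxygen it was Gch1, Gchfr, Dynll1, Qdpr, Spr, Nosip, Pts, Nos1 and Nos1ap. Nos1 stood sixth of the 9 at 4% oxygen (15.5 ± 6.99 RPKM, above 78.4% of tested genes) and eighth at 20% oxygen (5.54 ± 0.545 RPKM, above 56.5%). Within the 4% oxygen libraries the ranges of Spr and Nos1, of Nos1 and Nosip, and of Nosip and Pts overlapped. Within the 20% oxygen libraries those of Gch1 and Gchfr, Spr and Nosip, Nosip and Pts, and Pts and Nos1 overlapped. Of these overlapping neighbours, Spr over Nos1 at 4% oxygen, and Gch1 over Gchfr and Spr over Nosip at 20% oxygen, kept their order within 3 of 3 libraries, and the others within 2 of 3. The remaining neighbours did not overlap. The level per length rests on the deposited gene model: for Nos1 it is 4388 bases, 39.4% of the exon bases that GENCODE annotates, and for Gchfr 629 bases, or 97.5%.

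**Figure D1:**
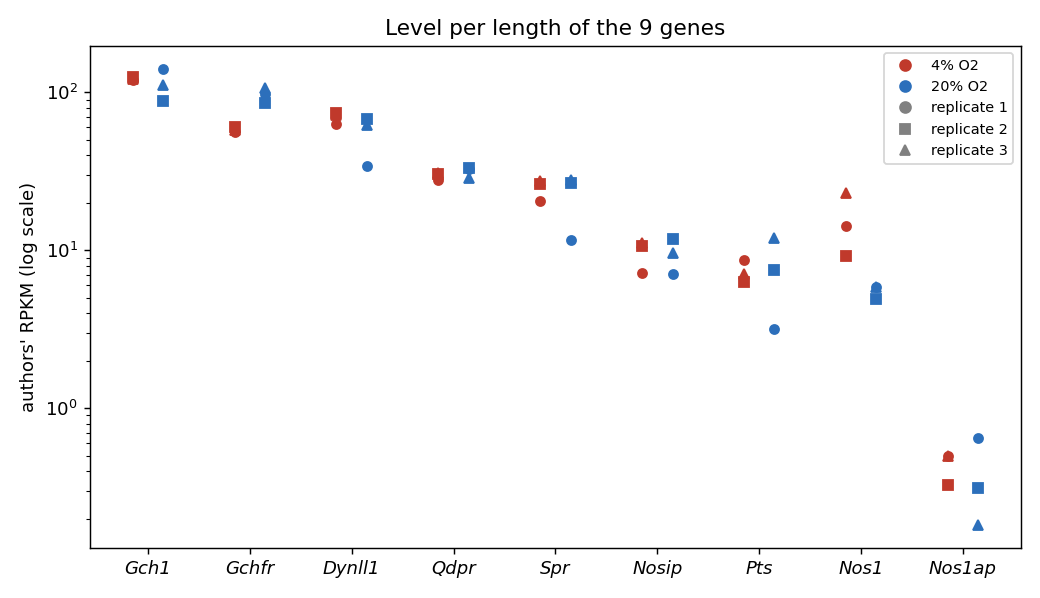
Level per length of each gene in each library, as the authors' RPKM on a log axis (4% oxygen in red, left of 20% oxygen in blue; marker shapes are replicate numbers). Gch1 lay near the top at both oxygen levels, and Nos1 had 9.27 to 23.1 RPKM at 4% oxygen, all above its 4.91 to 5.87 RPKM at 20% oxygen.

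Across the 9 genes, the 4% oxygen libraries lay above those at 20% oxygen for Nos1, below them for Gchfr and Qdpr, and overlapped for the other 6. Groups that did not overlap made up 6.33% of all tested genes in the higher direction and 3.72% in the lower. With edgeR's quasi-likelihood test and Benjamini-Hochberg adjustment over all genes, 0 of the 9 passed at an adjusted p under 0.05, where the background was 0% higher and 0% lower among 14979 genes. At an unadjusted p under 0.05, Nos1 was higher and Gchfr lower, against a background of 3.01% of genes higher (451) and 1.42% lower (213). With the replicate number as a block the test called 11 genes higher and 0 lower over the whole table, none of them among the 9, and the unadjusted shares were 6.01% higher and 2.86% lower. Without 20% oxygen replicate 1 Nos1 and Gchfr were again the 2 members under that unadjusted threshold, against shares of 5.79% higher and 3.01% lower. DESeq2 called 0.366% of 14772 genes higher (54) and 0.0542% lower (8), with Nos1 among the higher, and limma-voom called 0. The median log2 fold change of the 9 was 0.03, against -0.03 over all genes tested.

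**Figure D2:**
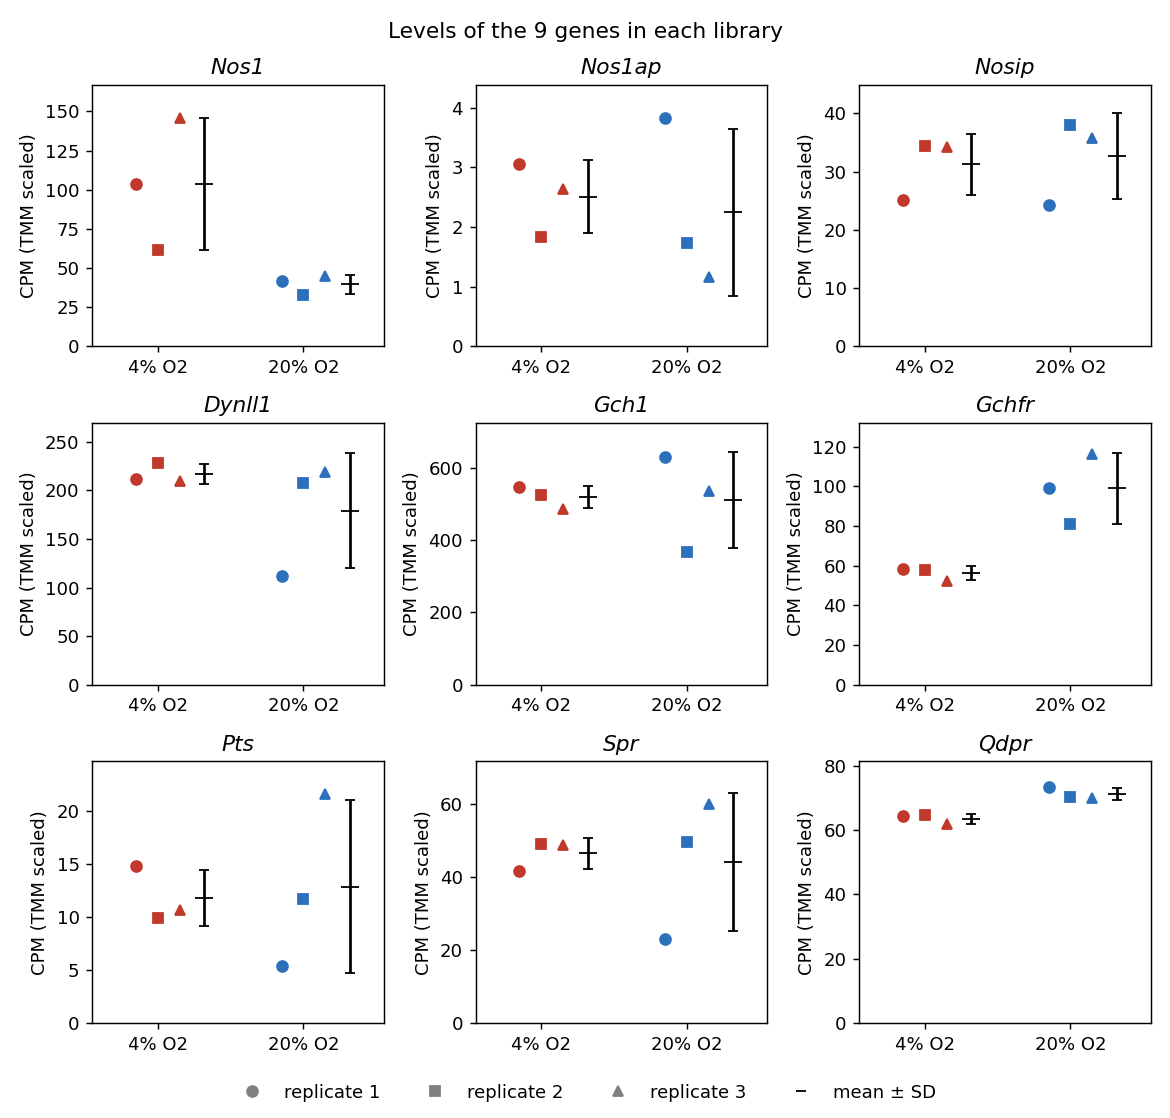
CPM (TMM scaled) of each gene in each library, from 0, with 4% oxygen on the left and 20% oxygen on the right of each panel; marker shapes are replicate numbers and the bar is the mean ± SD. Nos1 (61.8 to 146 CPM at 4% oxygen, 32.6 to 44.6 at 20% oxygen), Gchfr (52.4 to 58.5 at 4% oxygen, 81.2 to 117 at 20% oxygen) and Qdpr (61.7 to 64.6 at 4% oxygen, 70.0 to 73.3 at 20% oxygen) did not overlap between the groups.

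Nos1 lies on chromosome 5, 117867119 to 117953813. Its libraries held 14250, 9884 and 22316 counts at 4% oxygen (replicates 1, 2 and 3) and 5362, 3948 and 5950 counts at 20% oxygen. Scaled, these were 103, 61.8 and 146 CPM at 4% oxygen, against 41.6, 32.6 and 44.6 CPM at 20% oxygen. Every 4% oxygen library was above every 20% oxygen library, and in both groups replicate 3 was the highest and replicate 2 the lowest. Between same-numbered libraries the level at 4% oxygen was 2.49, 1.89 and 3.27 times that at 20% oxygen. The fitted log2 fold change was 1.39 (SE 0.32, 95% interval 0.69 to 2.09), with an edgeR adjusted p of 0.51 and an unadjusted p of 0.00105, which ranked thirtieth among the genes tested. DESeq2, whose adjusted p was 0.0238, called it. The size of the estimate exceeded that of 98.2% of tested genes. In bulk RNA, more cells with the transcript and more transcript per cell cannot be told apart.

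The other nitric oxide synthases contributed little. Nos2, the inducible enzyme, had 0 to 10 counts in any library, and Nos3, the endothelial enzyme, 132 to 450 counts. Nos3 averaged 2.09 ± 1.22 CPM in 4% oxygen, against 1.33 ± 0.215 CPM in 20% oxygen, and the log2 fold change, 0.65 (SE 0.51), was not past the threshold (edgeR adjusted p = 0.996). Of the summed RPKM of the 3 synthase genes, Nos1 held 96.8%, 98.5% and 98.4% in the 4% oxygen libraries and 96.8%, 96.3% and 96.3% in the 20% oxygen libraries. Nos1 shares 2.4% of its annotated exon bases with the antisense gene Gm26995, and the sources used here do not say whether counting used strand.

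The genes of the 3 NOS1 partners overlapped between the oxygen levels. Nos1ap (chromosome 1, 170317496 to 170589849) encodes the adaptor, also called CAPON, that binds the PDZ domain of NOS1 and links it to other proteins. It had 3.05, 1.84 and 2.64 CPM in the libraries of 4% oxygen and 3.83, 1.73 and 1.17 CPM in those of 20% oxygen. The groups overlapped, and the highest and the lowest value were both at 20% oxygen. Its log2 fold change was 0.16 (SE 0.48), with a 95% interval of -0.89 to 1.21 that leaves changes of either sign. Without 20% oxygen replicate 1 the estimate was 0.79, and without 20% oxygen replicate 3 it was -0.15.

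Nosip (chromosome 7, 45062429 to 45078503) encodes a NOS-interacting protein with ubiquitin ligase activity that was described as affecting where nitric oxide synthases lie in the cell. It had 25.2, 34.4 and 34.3 CPM in 4% oxygen, against 24.3, 37.9 and 35.8 CPM at 20% oxygen. Replicate 1 was the lowest of its group at both oxygen levels, and between same-numbered libraries the level at 4% oxygen was 1.04, 0.906 and 0.957 times that at 20% oxygen. The log2 fold change was -0.06 (SE 0.27, 95% interval -0.65 to 0.52). Nosip shares 3.68% of its exon bases with Prrg2, on the other strand.

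Dynll1 (chromosome 5, 115297110 to 115300990) encodes the dynein light chain LC8, first named PIN for its binding to NOS1. Its libraries had 212, 228 and 209 CPM in 4% oxygen, against 111, 208 and 219 CPM at 20% oxygen. Replicate 1 at 20% oxygen stood alone below the rest, while the other 5 libraries lay between 208 and 228 CPM. The log2 fold change of 0.27 (SE 0.28, 95% interval -0.33 to 0.88) became 0.02 without that library.

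Cofactor synthesis begins with Gch1 (chromosome 14, 47153895 to 47189402). It had 549, 525 and 488 CPM in the libraries of 4% oxygen and 631, 367 and 535 CPM in those of 20% oxygen. The 4% oxygen values lay inside the range of those at 20% oxygen, which held both the highest and the lowest library. The log2 fold change was 0.03 (SE 0.24), and its 95% interval of -0.51 to 0.56 bounds the change on the log2 scale.

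Gchfr (chromosome 2, 119167788 to 119172389), the feedback protein of GCH1, had the smallest edgeR p of the 9 after Nos1. It had 58.5, 58.1 and 52.4 CPM at 4% oxygen, against 99.2, 81.2 and 117 CPM at 20% oxygen. All 3 libraries at 4% oxygen were below all 3 at 20% oxygen, at 0.59, 0.715 and 0.45 times the level of the same-numbered library. Its log2 fold change was -0.81 (SE 0.24, 95% interval -1.34 to -0.29), with an unadjusted edgeR p of 0.00553 and an adjusted p of 0.732. DESeq2 gave an adjusted p of 0.264, and leaving out each library in turn kept the estimate between -0.94 and -0.68. The size of the estimate exceeded that of 91.9% of tested genes. No other gene shares its annotated exons.

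Pts and Spr, the enzymes that finish the synthesis, varied more within 20% oxygen than between the groups. Pts (chromosome 9, 50521617 to 50528641) had 14.8, 9.94 and 10.6 CPM in 4% oxygen, against 5.34, 11.7 and 21.6 CPM at 20% oxygen. Its 20% oxygen libraries thus ran both below and above all those at 4% oxygen. The log2 fold change was -0.12 (SE 0.43, 95% interval -1.07 to 0.82), and it became -0.496 when replicate 1 of 20% oxygen was left out and 0.48 when replicate 3 was. Spr (chromosome 6, 85133680 to 85137764) had 41.6, 48.9 and 48.9 CPM in 4% oxygen, against 23.1, 49.5 and 59.9 CPM at 20% oxygen. Here too the group at 20% oxygen held the lowest and the highest library. The log2 fold change of 0.07 (SE 0.33, 95% interval -0.64 to 0.79) was -0.24 without 20% oxygen replicate 1.

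Qdpr (chromosome 5, 45434032 to 45450229), the recycling enzyme, was the steadiest of the 9. It had 64.3, 64.6 and 61.7 CPM in 4% oxygen, against 73.3, 70.3 and 70.0 CPM at 20% oxygen. The groups did not overlap, and each 4% oxygen library had 0.877, 0.919 or 0.882 times the level of the 20% oxygen library with its number. The log2 fold change of -0.16 (SE 0.22, 95% interval -0.64 to 0.31) had an edgeR adjusted p of 0.996. Qdpr shares 18.6% of its annotated exon bases with Gm42413 on the other strand, and without strand information their reads cannot be told apart.

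**Figure D3:**
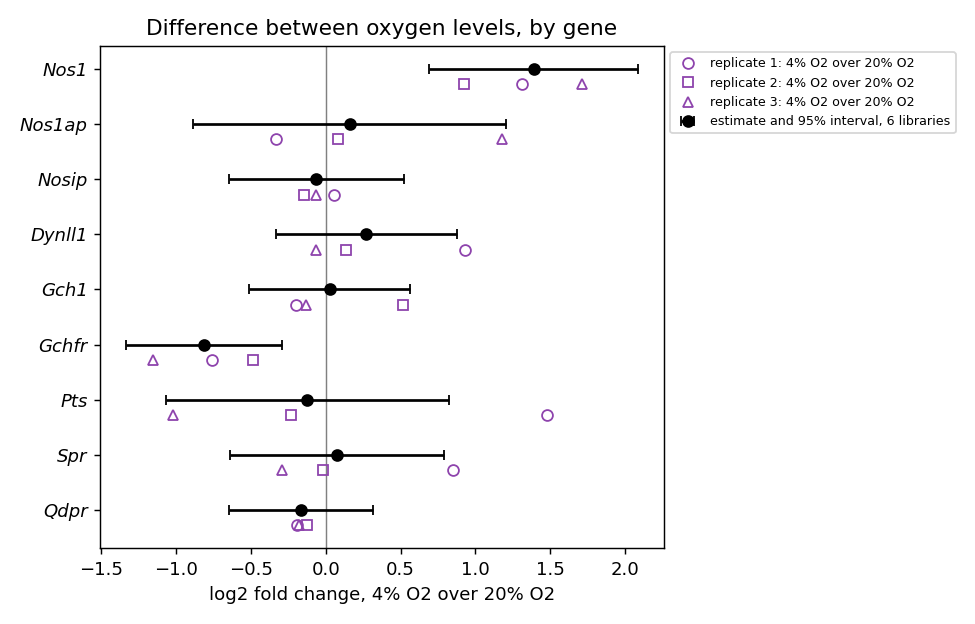
Log2 fold change of each gene at 4% over 20% oxygen: black points are edgeR estimates from all 6 libraries with 95% intervals, and open purple markers below them are differences between libraries of the same replicate number. The intervals of Nos1 (0.69 to 2.09) and Gchfr (-1.34 to -0.29) lie to one side of 0, and the 3 open markers of Nos1, Gchfr and Qdpr lie on the same side of 0.

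Replicate 1 at 20% oxygen, the library that stood apart over all genes, was the lowest of the 6 for 4 of the 9 genes (Nosip, Dynll1, Pts and Spr) and the highest for 3 (Nos1ap, Gch1 and Qdpr). For Nos1 and Gchfr it lay between others. The coefficient of variation was lower at 4% oxygen than at 20% oxygen for 8 of the 9 genes, Nos1 being the exception, against 65.1% of all genes. Without 20% oxygen replicate 1 it was lower for 5 of the 9, against 46.3%. Nos1 had a coefficient of variation of 40.6% at 4% oxygen and 15.8% at 20% oxygen. That of Gch1 was 5.93% at 4% oxygen and 26.1% at 20% oxygen, and that of Qdpr was 2.46% at 4% oxygen and 2.59% at 20% oxygen.

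Ratios of 2 genes within a library need no scaling between libraries, and 5 were compared as counts per length. The synthase stood higher relative to the entry enzyme of its cofactor at 4% oxygen: Nos1 over Gch1 was 0.119, 0.0742 and 0.189 at 4% oxygen, against 0.0415, 0.056 and 0.0525 at 20% oxygen. The groups did not overlap, and the mean log2 ratio differed by 1.26 (exact permutation test, two-sided, p = 0.1). For groups of 3 that is the smallest p this test can give, and adjusted over the 5 ratios by the Benjamini-Hochberg method it was 0.167. Gch1 over Gchfr was 2.14, 2.06 and 2.12 at 4% oxygen, against 1.45, 1.03 and 1.05 at 20% oxygen. These 4% oxygen values lay close together and above all the values at 20% oxygen, a log2 difference of 0.86 with the same p of 0.1 in the exact permutation test and 0.167 when adjusted.

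Nos1 relative to its partners was less evenly separated. Nos1 over Nosip was 1.99, 0.874 and 2.07 at 4% oxygen and 0.832, 0.418 and 0.606 at 20% oxygen, a log2 difference of 1.37 (exact permutation p = 0.1, adjusted 0.167). The groups did not overlap, but the lowest 4% oxygen library was close to the highest at 20% oxygen. Nos1 over Dynll1 was 0.225, 0.125 and 0.321 at 4% oxygen and 0.172, 0.0723 and 0.094 at 20% oxygen, with overlap (log2 difference 0.98, exact permutation p = 0.2, adjusted 0.25). Nos1 over Nos1ap was 28.5, 28.2 and 46.4 at 4% oxygen and 9.11, 15.8 and 32.02 at 20% oxygen, also with overlap (log2 difference 1.01, exact permutation p = 0.3, adjusted 0.3). In each of the 5 ratios, all 3 same-numbered pairs had the higher value at 4% oxygen. The ratios are not independent: all but Gch1 over Gchfr have Nos1 as numerator. Gch1 itself hardly differed (log2 fold change 0.03), so its 2 ratios mostly restate the differences of Nos1 and Gchfr.

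**Figure D4:**
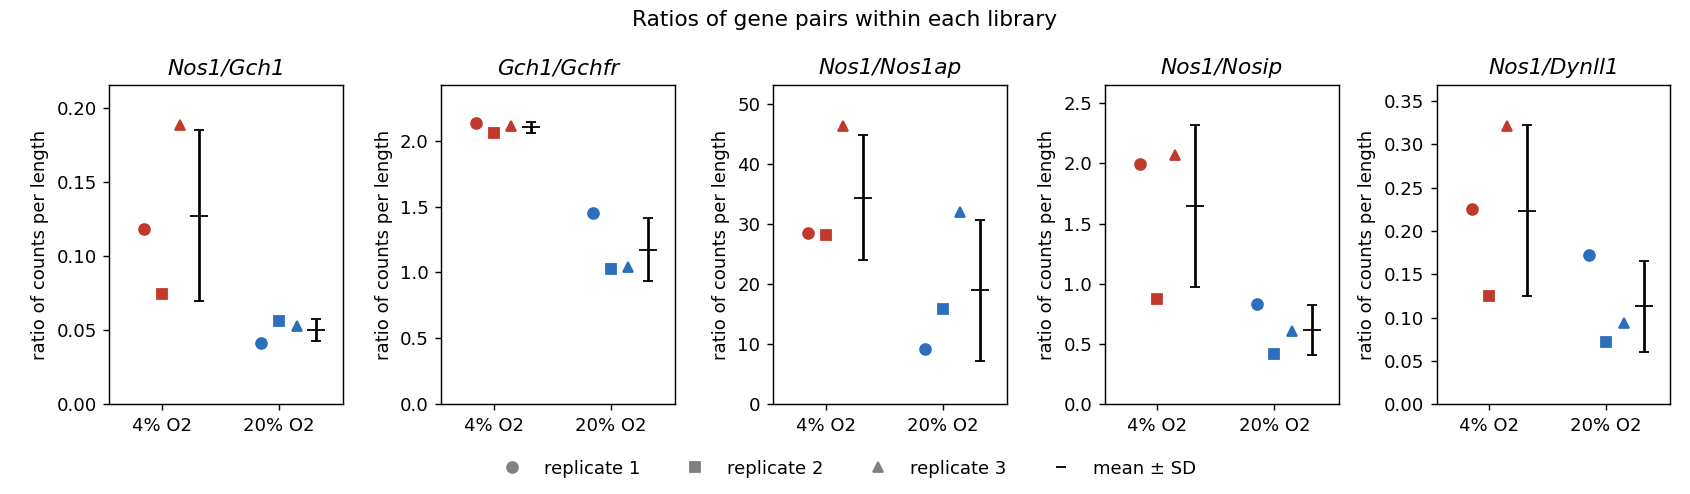
Ratios of counts per length between 2 genes of the same library, on linear axes from 0 (4% oxygen left, 20% oxygen right; shapes are replicate numbers, bars the mean ± SD). Gch1 over Gchfr was 2.06 to 2.14 at 4% oxygen and 1.03 to 1.45 at 20% oxygen.

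Other users of tetrahydrobiopterin were led by Th, the tyrosine hydroxylase gene and the entry point to catecholamines. Of 5 such genes 3 were tested and 0 passed over all genes. Th averaged 510 ± 34.2 CPM in 4% oxygen, against 325 ± 54.7 CPM at 20% oxygen, with no overlap (log2 fold change 0.65, SE 0.22; edgeR adjusted p = 0.963, unadjusted p = 0.0134). By RPKM Th stood at 190 at 4% oxygen and 115 at 20% oxygen, so this hydroxylase exceeded Nos1 in level at both. Tph1, the tryptophan hydroxylase of peripheral tissues, averaged 4.64 ± 0.518 CPM in 4% oxygen, against 3.58 ± 0.874 CPM at 20% oxygen, and Tph2, that of neurons, 13.9 ± 2.81 CPM in 4% oxygen, against 19.6 ± 10.6 CPM at 20% oxygen. Agmo, the alkylglycerol monooxygenase gene, had at most 2 counts in any library.

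The remaining cofactor genes showed no member past an unadjusted p of 0.05. Of 5 genes of synthesis, salvage and recycling, all were tested, 1 estimate was above 0, and the median log2 fold change was -0.36. Akr1b3, an aldo-keto reductase that can act in salvage, averaged 2.17 ± 0.393 CPM in 4% oxygen, against 3.004 ± 0.669 CPM at 20% oxygen. The carbonyl reductase Cbr1 averaged 34.6 ± 4.59 CPM in 4% oxygen, against 43.9 ± 13.6 CPM at 20% oxygen, and Pcbd2, a pterin carbinolamine dehydratase, 7.89 ± 0.965 CPM in 4% oxygen, against 10.2 ± 4.42 CPM at 20% oxygen. Its relative Pcbd1 was the most abundant of the list, at 58.2 RPKM at 4% oxygen and 49.8 RPKM at 20% oxygen.

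Among 6 genes that supply GTP, the substrate of GCH1, 0 passed and the median was -0.10. Impdh1, an isoform of the enzyme that commits purines to guanine nucleotides, averaged 95.8 ± 13.3 CPM in 4% oxygen, against 73.7 ± 5.69 CPM at 20% oxygen, without overlap (log2 fold change 0.38, SE 0.23; edgeR adjusted p = 0.996). Nme2, a nucleoside diphosphate kinase and the most abundant of these genes, averaged 426 ± 50.3 CPM in 4% oxygen, against 607 ± 259 CPM at 20% oxygen, and its neighbour in function Nme1 232 ± 17.8 CPM in 4% oxygen, against 268 ± 105 CPM at 20% oxygen.

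Of 22 further activators, anchors and partners of NOS1, 20 were tested and 0 passed, with a median log2 fold change of 0.04. At an unadjusted p under 0.05, 1 of the 20 was higher, where the share over all genes tested was 3.01%. That gene was Dlg2, a PSD-95 family scaffold (PSD-93) that can tether NOS1, at 44.6 ± 10.1 CPM in 4% oxygen, against 27.3 ± 1.82 CPM at 20% oxygen (log2 fold change 0.71, SE 0.25; edgeR adjusted p = 0.996). Grin1, the obligatory NMDA receptor subunit, averaged 22.5 ± 5.05 CPM in 4% oxygen, against 15.1 ± 4.53 CPM at 20% oxygen, whereas Grin2a and Grin2b had at most 4 and 10 counts in any library. The chaperone gene Hsp90ab1 was the most abundant of the list, at 856 RPKM at 4% oxygen and 913 RPKM at 20% oxygen.

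Substrate supply and the nitric oxide receptor gave no call either. Of 11 genes of arginine supply and methylarginine handling, 9 were tested and 0 passed, with a median log2 fold change of -0.09. Ddah1, which breaks down the NOS inhibitor asymmetric dimethylarginine, averaged 58.8 ± 10.6 CPM in 4% oxygen, against 40.8 ± 8.35 CPM at 20% oxygen (log2 fold change 0.53, SE 0.26). Ass1, which rebuilds arginine from citrulline together with Asl, averaged 3.48 ± 0.764 CPM in 4% oxygen, against 5.58 ± 1.199 CPM at 20% oxygen without overlap (log2 fold change -0.68, SE 0.34), and the arginase gene Arg2 0.447 ± 0.0774 CPM in 4% oxygen, against 0.924 ± 0.666 CPM at 20% oxygen. Asl, the most abundant of the list, stood at 85.3 RPKM at 4% oxygen and 57.9 RPKM at 20% oxygen. For the 7 genes of nitric oxide reception and S-nitrosothiol removal 0 passed and the median was -0.06. Gucy1a1, a subunit of the nitric oxide receptor that the file lists under its former name Gucy1a3, averaged 45.3 ± 7.89 CPM in 4% oxygen, against 32.1 ± 6.4 CPM at 20% oxygen (log2 fold change 0.498, SE 0.26), Txnrd1 275 ± 115 CPM in 4% oxygen, against 394 ± 118 CPM at 20% oxygen, and Txn1, the most abundant at 99.8 RPKM in 4% oxygen and 115 RPKM in 20% oxygen, 161 ± 2.72 CPM in 4% oxygen, against 197 ± 59.5 CPM at 20% oxygen. Ddah1, Ass1, Arg2, Gucy1a1, Txnrd1 and Txn1 each had an edgeR adjusted p of 0.996.

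**Figure D5:**
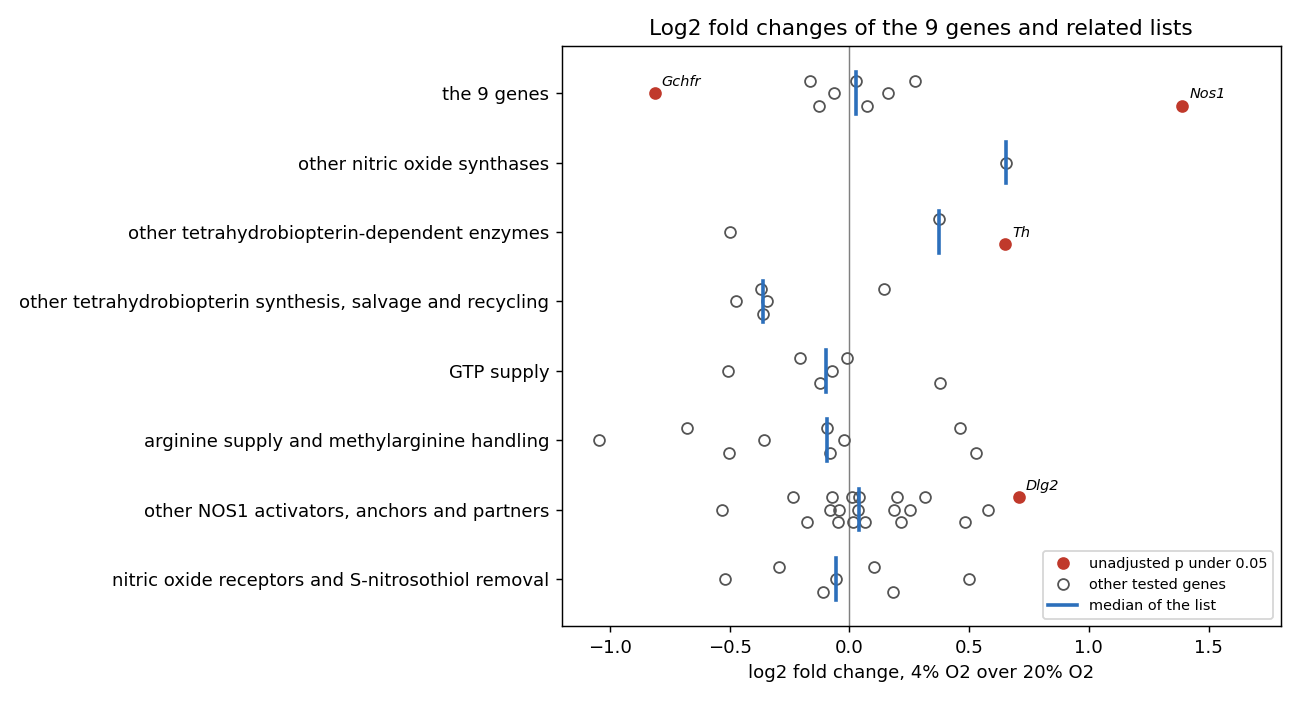
Log2 fold changes at 4% over 20% oxygen (edgeR) of the 9 genes and of the tested genes in 7 related lists; filled red points had an unadjusted p under 0.05, and blue lines are list medians. The filled points were Nos1, Gchfr, Th and Dlg2, none of which passed over all genes.

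The genes whose level followed Nos1 most closely were found by Pearson's correlation of log2 CPM over the 6 libraries among the 10335 genes that averaged 5 CPM or more. They were Sh3bp1 (r = 0.996), Arhgef17 (0.989), Sv2c (0.987), Dennd4b (0.985) and Pkmyt1 (0.984). The libraries share oxygen level and replicate number, so the value is a description over 6 points. Sv2c, a synaptic vesicle glycoprotein gene, had 170, 142 and 186 CPM at 4% oxygen, against 111, 101 and 110 CPM at 20% oxygen, with replicate 2 lowest in both groups as for Nos1. Arhgef17, a guanine nucleotide exchange factor gene, had 31.2, 25.1 and 41.4 CPM in 4% oxygen, against 18.3, 14.9 and 20.8 CPM at 20% oxygen. The edgeR estimate on the log2 scale was 0.63 (SE 0.23) for Sv2c and 0.86 (SE 0.28) for Arhgef17, against 1.39 for Nos1.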

How the data were processed

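RNA of N1E115 cells was measured in 6 libraries, 3 at 4% oxygen and 3 at 20% oxygen. On the kit the labels differ: stranded total RNA in the design text, mRNA in the extraction protocol. Per the submitters' processing notes, TopHat2 2.0.6, Bowtie, HTSeq and mm10 were used, with no role given; the sources used here do not give the annotation, strand use or handling of multi-mapping reads. The authors deposited raw counts per gene (100% even, as if each pair added its 2 reads) and RPKM per deposited gene model length and library total, in which genes held 57.6% to 67.8%. No sample column was left unmatched.

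The test was run on the counts in edgeR 4.0.16 (R 4.3.3): filterByExpr (minimum count 10, minimum total 15) kept 14979 of 23358 rows, all 9 genes among them; TMM scaling; quasi-likelihood test, two-sided, no covariate, Benjamini-Hochberg over all genes, threshold 0.05. The common biological coefficient of variation was 0.359. SE is the log2 fold change over the square root of F. The procedure was tested on simulated data with the observed dispersion. There it recovered 15 of 100 genes changed 2-fold and 94 of 100 changed 4-fold, with 6 false calls. A change near 2-fold could thus be missed at the adjusted threshold. The simulated counts were drawn independently, without any deviation that a library shares across genes, so these recoveries may not hold for the data. In the data Egln3, with an estimate above 4-fold (log2 fold change 2.235), had an edgeR adjusted p of 0.112 and did not pass. RPKM, as the authors deposited it, was used to compare genes. Alternatives used DESeq2 1.42.0, limma 3.58.1, other scalings, no filter, halved counts, log2(RPKM + 0.1), a replicate block, and each library left out. At this depth the spread between libraries, not counting error, limits precision.

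The labels number libraries 1 to 3 in both groups. Deviations from group means correlated at 0.317, 0.604 and 0.212 between same-numbered libraries, and 6 of 6 matched their own number best. The numbers may therefore pair the samples, on evidence from 3 libraries per group and not from the labels. The fit without the block is the one reported, so its SEs, intervals and p-values leave out any pairing. For Nos1 the unadjusted edgeR p was 0.00105 without the block and 0.000163 with it, and the adjusted p 0.51 and 0.0746.

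Named genes are the 9 members, up to 3 genes with the smallest p and the most abundant gene of each related list, the 5 genes most like Nos1, and Slc2a1 and Egln3; others named beside a list are undetected members or were chosen after their values were seen. A few list members are not reported here by name. The members, lists and ratios were chosen with earlier results of these data known. Promoter windows are from RefSeq (GRCm38.p6) and exon overlaps from GENCODE M21, both on the assembly mm10 denotes.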

Additional observations from a re-analysis of the deposited data

How the results depend on the processing

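The number of genes called over the whole table was 0 with edgeR, 62 with DESeq2, 27 with no filter on low counts and 11 with the replicate block, and 0 to 1 with each library left out in turn. Of the 9 genes, DESeq2 called 1, Nos1 (log2 fold change 1.37, adjusted p = 0.0238), and every other setting tried called 0; the cause was not tested. The replicate block changed no call among the 9 (Nos1: log2 fold change 1.32, edgeR adjusted p = 0.0746). For the 5 ratios, pairing by replicate number gives the same mean log2 difference as the unpaired comparison. Their directions could not change under it, so the pairing is no check of those directions. Nos1 kept its direction in all 14 alternatives, from 1.06 without 4% oxygen replicate 3 to 1.65 without 4% oxygen replicate 2, with edgeR adjusted p-values from 0.238 to 1 when a library was left out. Gchfr, Qdpr and Dynll1 also kept their directions in those 14. The 5 ratios kept theirs with 0.5 added to both counts and with each library left out. Pts changed sign with limma-voom (0.065), log2(RPKM + 0.1) (0.15) and the replicate block (0.053), and ran from -0.496 to 0.48 with a library left out. Nosip changed sign with log2(RPKM + 0.1) (0.027) and ran from -0.24 to 0.0595 with a library left out; over the same fits Nos1ap ran from -0.15 to 0.79, Gch1 from -0.16 to 0.21 and Spr from -0.24 to 0.36. The sign of these 5 small estimates was therefore not settled by the data.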

Other observations

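Ddc, the aromatic amino acid decarboxylase that follows tyrosine hydroxylase, was low beside Th: it stood at 0.858 RPKM at 4% oxygen and 0.474 RPKM at 20% oxygen, where Th stood at 190 RPKM at 4% oxygen and 115 RPKM at 20% oxygen. Ddc averaged 2.76 ± 0.821 CPM in 4% oxygen, against 1.59 ± 1.001 CPM at 20% oxygen (SD, n = 3 each), with overlap between the groups. Rasd1, a small GTPase gene whose product NOS1AP links to NOS1, had 6 to 42 counts in any library. Both were named after their values were seen.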
